A study of Mus musculus with 2 samples.

Results

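The mRNA of complement and coagulation factors was measured in the liver of male apoE-KO mice of the C57BL/6 strain. The mice received, from 10 weeks of age and for 1 week, either normal chow or the same chow with 1.25% cholesterol, the high-Chol diet. Both diet groups lack apolipoprotein E, so that the comparison is between diets within 1 genotype. RNA of whole liver was hybridized to 3 one-colour Agilent arrays per diet, each described as an independent experiment. How many animals stand behind an array was not stated. The factors were listed by gene name under a rule that uses no measured value, although earlier results of these data were known when the list was drawn up, as 18 complement and 17 coagulation genes among the 27962 gene names on the array. All 35 were found, on 49 distinct probes, and all 35 were well above background on all 6 arrays, among 16722 genes that passed the filter for dim probes and were tested.

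Complement and coagulation are cascades of plasma proteins in which 1 protease activates the next by limited cleavage. Most of these proteins are made and secreted by hepatocytes. In complement, the C1 complex and the mannose-binding lectins with their proteases start the cascade, C2 and C4 form a convertase that cleaves C3, and the terminal components assemble a pore in the target membrane. In coagulation, the contact factors and factor VII start protease reactions that end in thrombin, which turns fibrinogen into fibrin, while protein C, protein S and plasminogen limit or dissolve the clot.

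The promoters of 25 members were found in a RefSeq table of 300-base windows around gene starts (build GRCm38.p6). Below are the 250 bases before the start of Hc, which encodes complement component C5, and of the neighbouring fibrinogen genes Fga, Fgb and Fgg, because Hc is among the members with the lowest p and the fibrinogen genes, side by side on the chromosome, differ in how the arrays fall. Capitals mark matches, on either strand, to any of 7 motifs of liver promoters.
Hc, chr2:35061413-35061662, minus strand: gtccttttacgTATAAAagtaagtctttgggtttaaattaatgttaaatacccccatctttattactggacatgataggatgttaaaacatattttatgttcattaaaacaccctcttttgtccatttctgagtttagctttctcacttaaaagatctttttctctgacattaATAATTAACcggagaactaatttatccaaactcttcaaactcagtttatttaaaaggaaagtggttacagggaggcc
Fga, chr3:83025903-83026152, plus strand: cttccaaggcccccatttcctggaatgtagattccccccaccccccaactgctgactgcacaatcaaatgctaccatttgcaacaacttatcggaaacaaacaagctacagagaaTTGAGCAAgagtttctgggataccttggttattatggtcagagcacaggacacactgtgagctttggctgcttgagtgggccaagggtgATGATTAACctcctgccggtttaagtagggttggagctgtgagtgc
Fgb, chr3:83049864-83050113, minus strand: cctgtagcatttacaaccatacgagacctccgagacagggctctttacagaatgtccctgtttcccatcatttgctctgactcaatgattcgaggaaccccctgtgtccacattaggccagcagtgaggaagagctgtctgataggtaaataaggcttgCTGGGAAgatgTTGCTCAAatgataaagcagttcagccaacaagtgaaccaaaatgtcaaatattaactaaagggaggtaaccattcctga
Fgg, chr3:83007474-83007723, plus strand: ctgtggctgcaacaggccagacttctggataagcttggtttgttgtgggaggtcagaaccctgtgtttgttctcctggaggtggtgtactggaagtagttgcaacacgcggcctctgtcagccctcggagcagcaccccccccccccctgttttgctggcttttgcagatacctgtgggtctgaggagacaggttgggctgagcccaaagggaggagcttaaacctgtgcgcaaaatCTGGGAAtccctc
The HNF1 motif GTTAATNAT was in 4 of the 25 windows, those of C4bp, F13b, Fga and Hc, and in 0.8% of the 32851 windows in the table. C/EBP letters, TTGCNNAA, were in 7 of 25 (C3, C9, F11, F9, Fga, Fgb and Klkb1), against 10.8% of all windows. The letters CTGGGAA, known from interleukin-6 response elements, were in 5 of 25 (C6, F9, Fgb, Fgg and Masp2), against 11.1%. For the other motifs the counts were 2 for CAAAGGTCA (F7 and F9, against 0.48%), 2 for TGTTTAC (F11 and Klkb1, against 3.65%), 3 for TATAAA (C3, Hc and Klkb1, against 13.6%) and 0 for CAAAGTCCA (against 0.47%). These matches describe the letters in the windows, and binding was not measured.

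Each probe on the array is a 60-base oligonucleotide. The following 4 are shown because they set what a member's value can mean (coordinates of build mm7).
C4b, chr17:32815561-32815620, minus strand: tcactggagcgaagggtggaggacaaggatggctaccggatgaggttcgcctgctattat
C4a, chr17:32912160-32912219, minus strand: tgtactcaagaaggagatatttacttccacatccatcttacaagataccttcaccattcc
C1r, second probe, chr6:124600159-124600218, plus strand: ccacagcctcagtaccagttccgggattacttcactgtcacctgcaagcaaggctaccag
Kng1, chr16:22736150-22737612, plus strand: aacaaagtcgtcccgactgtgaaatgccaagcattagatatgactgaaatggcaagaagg
The annotation of the C4b probe and that of the C4a probe each list the RefSeq transcripts of both genes, near-identical copies, so that these 2 values may share signal. The second C1r probe is annotated to the neighbouring copy C1rb and not to C1ra, the current name for the gene of the first probe. The Kng1 probe spans 1463 bases of the genome and thus joins sequence from both sides of an intron. Exon and UTR annotation of that build was not used here.

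Signals are given as log2 values from which the 75th percentile of the array was subtracted, so that 0 is that percentile, and differences are the high-Chol diet minus normal chow on this log2 scale. On the high-Chol diet 34 of the 35 members had a lower mean than on normal chow, where 52.2% of all genes did. The median difference was -0.40 over the 18 complement genes and -0.41 over the 17 coagulation genes, and -0.02 over all genes. None of the members passed the test across all genes: limma called 0 of 35 in either direction after Benjamini-Hochberg adjustment, where 0.227% of all genes were called lower and 2.69% higher. The lowest adjusted p among the members was 0.106. At an unadjusted p under 0.05, 13 complement and 9 coagulation genes were lower and 0 were higher, where 8.83% of all genes were lower and 12.3% higher. The methods' t-test gave 12 and 10 lower, and 0 of either pathway after adjustment. The limma counts of 13 and 9 became 4 and 2 with quantile normalization, where 7.65% of all genes were lower at that threshold. They were 4 and 2 without position 2 of the slide 2 arrays (3.86% of all genes) and 5 and 2 without position 2 of the normal chow arrays (4.61%). They were 0 and 0 with slide as a block (3.46%) and with normexp, another correction of the spot background (0.233%). Of the 32 members measured on all 6 arrays, 26 had every high-Chol value below every normal chow value (13 of 16 in each pathway), where 14.0% of all genes did. Shares among genes with bright probes, which most members have, are given further below. By size, 6 complement and 3 coagulation genes were lower by more than 1.5-fold, where 5.84% of all genes were. This count moved with the processing. With quantile normalization or the normexp background C4a alone was past that size (-0.65 and -0.66). After median scaling the medians of both pathways were, at -0.64 and -0.65. For a single gene, the exact permutation test of 3 against 3 arrays cannot go below 0.1.

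The 3 normal chow arrays and 1 high-Chol array lay on 1 slide (slide 1), and the other 2 high-Chol arrays on another (slide 2). Slide 2 was scanned before slide 1 and read with another version of the software. The 75th percentile of the signal was 271 to 374 on slide 1 and 762 to 799 on slide 2, so where array values are given for a member they stand in this order: normal chow first, at positions 1, 2 and 3, then the high-Chol array of slide 1, then those of slide 2. With slide as a block, only the slide 1 high-Chol array carries the difference. Markers of hepatocytes were well above background, and 7 of 8 were lower on the high-Chol diet (median -0.34, 0 called; 0.01 with 4 of 8 lower under the normexp background, and -0.11 after quantile normalization), with a summed signal of 1389 to 1490 against 1660 to 2052 on normal chow. All 10 macrophage markers had higher means, with 6 called, a median of 1.03 and a summed signal of 420 to 560 against 171 to 201. Of 8 neutrophil markers 5 were tested, 4 were higher and S100a8 and S100a9 were called, with a summed signal of 9.64 to 15.8 against 1.77 to 1.95. Prtn3 differed by -0.69, and Ngp, Camp and Elane did not pass the filter. The median of these 5 was 2.18, and -0.19 with 3 lower under the normexp background. Of the stellate and bile duct markers Col1a1 alone was called, as higher, and of the endothelial, platelet and lymphocyte markers 0 were. Of these 9 calls 0 held with slide as a block (adjusted p = 0.0767 to 0.360 from limma), with the normexp background or with the methods' t-test. With 1 array left out 3 to 9 held, those of Cd68, S100a8 and S100a9 in every case. In whole liver, fewer hepatocytes and less RNA per hepatocyte cannot be told apart, and the part of cell composition in the members' differences was not tested.

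**Figure D1:**
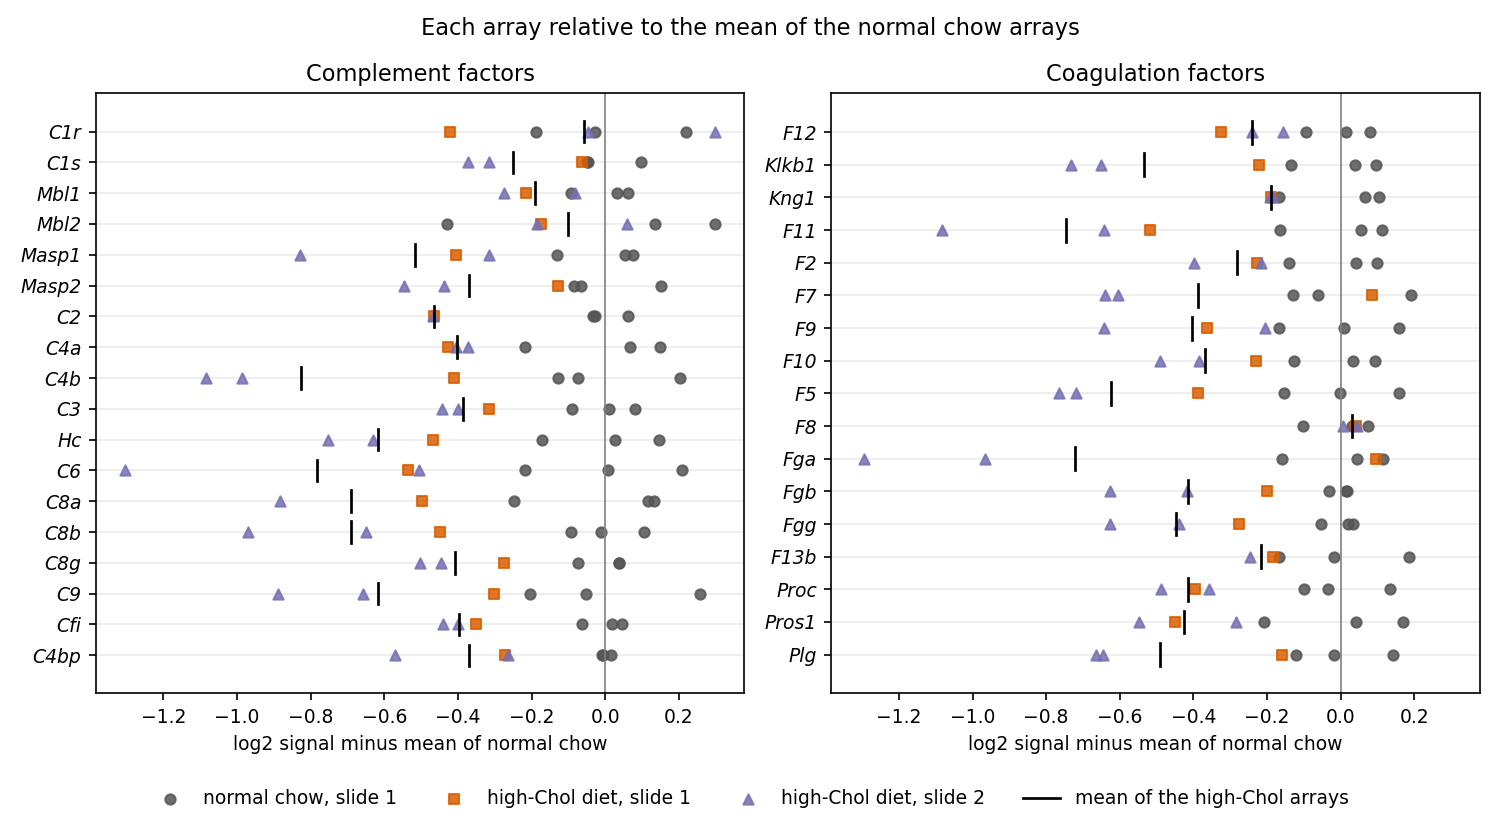
Signal of each member on each array, as log2 signal minus the mean of the 3 normal chow arrays (x axis), for the 18 complement and 17 coagulation factors (y axis). Symbols are arrays by diet and slide, and black bars are the means of the high-Chol arrays. Most high-Chol symbols lie left of the normal chow symbols, and for Fga and F7 the slide 1 high-Chol symbol lies among those of normal chow.

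The 6 genes that start complement had a median difference of -0.22, which turned to 0.07 after the normexp correction, and to 0.04 when arrays were quantile normalized, with 2 of the 6 lower under each. Masp1, which encodes a protease bound to mannose-binding lectins, was the only one of them with an unadjusted p under 0.05. Its signal was 4.07, 4.25 and 4.27 in chow-fed mice and 3.79, 3.37 and 3.88 under high-Chol feeding. The groups did not overlap, and the difference was -0.52 (standard error, SE, 0.18, adjusted p = 0.188). Of 2 further Masp1 probes well above background on all arrays, 1 differed by -0.68 and the other by -0.01, and a dim probe differed by -0.08, so the probes of this gene disagree in size. Masp2, whose protein cleaves C4 and C2, differed by -0.37 and had no overlap between groups. Its other probes differed by -0.53 and -0.19, and on these the groups overlapped.

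C1r and C1s encode the proteases of the C1 complex. C1r read 4.71, 5.12 and 4.87 in chow-fed mice, and under high-Chol feeding 4.48 on slide 1 against 4.85 and 5.20 on slide 2. The slide 1 array was thus the lowest of the 6 and a slide 2 array the highest, and the mean difference was -0.06, with a 95% interval of -0.58 to 0.47. The second C1r probe, annotated to C1rb, differed by -0.62, and the mean of both probes by -0.34. C1s differed by -0.25 over all arrays and by -0.06 with slide as a block. The lectin genes Mbl1 and Mbl2, whose products bind microbial sugars, differed by -0.19 and -0.10, and their groups overlapped.

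The convertase genes all had an unadjusted p under 0.05. C4b, which encodes component C4, had the largest difference of the 18 complement genes on this scale. C4a had it after quantile normalization or the normexp correction, and C6 with slide as a block. C6 also had it without position 3 of normal chow (-0.89 against -0.86 for C4b) or of slide 2 (-0.92 against -0.75). C4b read 6.26, 5.93 and 5.99 in chow-fed mice, 5.65 on the slide 1 high-Chol array, and 4.98 and 5.08 on slide 2. All high-Chol values were below all normal chow values, and the mean was 1.77-fold lower, a difference of -0.83 (SE 0.22, adjusted p = 0.111). With slide as a block it was -0.41, so the slide 1 array was nearer to normal chow than the slide 2 arrays were. The C4a probe, of the copy known as sex-limited protein, was dim, at -3.26, -2.89 and -2.97 in chow-fed mice and -3.47, -3.44 and -3.41 under high-Chol feeding. It differed by -0.40 (SE 0.16, adjusted p = 0.212), with no overlap.

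C3, the central component that all 3 routes of activation cleave, was read on 10 spots of 1 probe (chromosome 17, 55414567 to 55414626, minus strand). Its signal was 9.56, 9.63 and 9.46 in chow-fed mice and 9.23, 9.10 and 9.15 under high-Chol feeding. The groups were separate and tight, with a difference of -0.39 (SE 0.14, adjusted p = 0.193) that was -0.32 with slide as a block. A second C3 probe differed by -0.20, with overlap between the groups, and by 0.14 with the block. C2, the protease component of the convertase, read 6.34, 6.43 and 6.33 in chow-fed mice and 5.90 and 5.90 on the high-Chol arrays. The spot on the last array was marked as an outlier and left out. The difference for C2 was -0.47 over all arrays and also with the block. A second C2 probe differed by -0.51, and by -0.32 with the block.

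The 6 terminal genes had a median of -0.65, against -0.43 for the convertase genes, and all 6 had an unadjusted p under 0.05. With the normexp background the order turned, at -0.32 and -0.45, and with quantile normalization the medians were -0.43 and -0.42. Hc (C5), which opens the terminal pathway and whose promoter is shown above, lies on chromosome 2 (probe at 34990690 to 34990749, minus strand) and read 7.79, 7.67 and 7.47 in chow-fed mice and 7.17, 6.89 and 7.01 under high-Chol feeding. Its difference was -0.62 (SE 0.16, adjusted p = 0.107), while the block for slide gave -0.47. C6, whose product joins the growing complex, read 4.16, 3.95 and 3.73 in chow-fed mice and 3.41, 2.64 and 3.44 under high-Chol feeding. The position 2 array of slide 2 was the lowest, and the difference of -0.78 (SE 0.25, adjusted p = 0.164) was the second largest of the pathway on this scale.

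C8 is made of 3 chains from separate genes. C8b, the beta chain, read 4.63, 4.43 and 4.51 in chow-fed mice and 4.07, 3.55 and 3.87 under high-Chol feeding, a difference of -0.69 (SE 0.18, adjusted p = 0.106). C8a, the alpha chain, whose probe lies 11.4 kb from that of C8b, read 5.98, 5.96 and 5.60 in chow-fed mice and 5.35 and 4.96 on the high-Chol arrays, with the last spot left out as an outlier. C8a also differed by -0.69, over 2 high-Chol arrays where C8b had 3. With quantile normalization both differed by -0.44, and with the normexp background C8a differed by -0.58 and C8b by -0.32. C8g, the gamma chain, lies on another chromosome and read 6.41, 6.53 and 6.53 against 6.22, 5.99 and 6.04, a difference of -0.41. C9, the pore-forming component, read 3.93, 3.62 and 3.46 in chow-fed mice and 3.37, 2.78 and 3.01 under high-Chol feeding. Its difference of -0.62 became -0.30 with slide as a block. In none of the 4 genes did the groups overlap.

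Both regulators in the list act on C3b and C4b. Cfi (factor I), the protease that cleaves them, read 7.46, 7.57 and 7.54 in chow-fed mice and 7.17, 7.08 and 7.12 under high-Chol feeding. The arrays of each diet lay close together, and the difference was -0.40 (SE 0.14, adjusted p = 0.176). C4bp, a cofactor of factor I, read 7.50, 7.47 and 7.47 against 7.21, 6.91 and 7.22, a difference of -0.37 (adjusted p = 0.229). A second C4bp probe, well above background on only 2 arrays and not tested, differed by 1.57, and by -0.09 with slide as a block.

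Of the coagulation genes, the 4 of the contact system had a median of -0.39, and in all 4 every high-Chol value was below every normal chow value. F11 (factor XI), on chromosome 8 (probe at 44026954 to 44027013, minus strand), had the largest difference of the 17 genes. It read 4.80, 4.85 and 4.58 in chow-fed mice and 4.23, 3.66 and 4.10 under high-Chol feeding, 1.68-fold lower, which is a difference of -0.75 (SE 0.20, adjusted p = 0.107), while the block for slide gave -0.52. Klkb1 (plasma prekallikrein), whose probe lies 30.9 kb from that of F11, read 3.29, 3.46 and 3.52 in chow-fed mice, 3.20 on the slide 1 high-Chol array, and 2.77 and 2.69 on slide 2. Its difference was -0.54 (SE 0.18, adjusted p = 0.181), and the slide 1 array lay closer to normal chow, at -0.22. F12 (factor XII) and Kng1 (kininogen), which completes the contact system as a cofactor, differed by -0.24 and -0.19, while the second Kng1 probe differed by -0.52.

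The vitamin K-dependent proteases had a median of -0.38. F10 (factor X), which converts prothrombin, was the only one of the 4 with an unadjusted p under 0.05. It read 7.40, 7.56 and 7.62 in chow-fed mice and 7.30, 7.04 and 7.14 under high-Chol feeding, a difference of -0.37 (SE 0.15, adjusted p = 0.229) without overlap. F9 (factor IX) and F2 (prothrombin) differed by -0.40 and -0.28, also without overlap on the probe that stood for the gene. On the second F9 probe the groups overlapped, and F2 was 0.11 with the normexp background. F7 (factor VII), which starts coagulation with tissue factor and whose probe lies 20.4 kb from that of F10, split by slide. It read 4.08, 4.01 and 4.33 in chow-fed mice, 4.22 on the slide 1 high-Chol array, and 3.50 and 3.53 on slide 2. The slide 1 array was within the normal chow values, and the difference of -0.39 turned to 0.09 with slide as a block.

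F5 (factor V) and F8 (factor VIII) are cofactors of the proteases, and the contrast between them was not tested. F5 read 2.66, 2.81 and 2.97 in chow-fed mice and 2.43, 2.05 and 2.10 under high-Chol feeding, a difference of -0.62 (SE 0.17, adjusted p = 0.123) with no overlap. F8, on chromosome X (probe at 70597131 to 70598019, minus strand), was the only member with a higher mean under high-Chol feeding. It read -0.70, -0.53 and -0.57 in chow-fed mice and -0.56, -0.56 and -0.59 under high-Chol feeding, so that the high-Chol arrays lay inside the normal chow range. The difference was 0.03, with a 95% interval of -0.29 to 0.36, and was -0.13 with the normexp background and -0.21 when arrays were scaled to their median.

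Fibrinogen is built from 3 chains, whose genes lie together on chromosome 3 within 27.4 kb between the outermost probes. Fgb read 9.24, 9.24 and 9.20 in chow-fed mice, 9.03 on the slide 1 high-Chol array, and 8.81 and 8.60 on slide 2. Fgg read 9.17, 9.18 and 9.09 in chow-fed mice, then 8.87, and 8.71 and 8.52 on slide 2. In both genes the slide 1 high-Chol array lay between normal chow and slide 2, and they differed by -0.41 (SE 0.16, adjusted p = 0.212) and -0.45 (SE 0.15, adjusted p = 0.178). Fga, which lies between them (probe at 83136441 to 83136500, plus strand), read 6.33, 6.06 and 6.26 in chow-fed mice, 6.31 on the slide 1 high-Chol array, and 5.25 and 4.92 on slide 2. Its mean difference of -0.72 (SE 0.35, adjusted p = 0.276) thus rested on slide 2 and was 0.10 with slide as a block. F13b, the carrier subunit of the fibrin-stabilizing factor XIII, differed by -0.22 over 5 arrays.

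Protein C, protein S and plasminogen, which limit the clot, all had an unadjusted p under 0.05 and no overlap on the probe that stood for the gene. Proc (protein C) read 7.62, 7.69 and 7.86 in chow-fed mice and 7.33, 7.23 and 7.37 under high-Chol feeding. Its difference was -0.41 (SE 0.14, adjusted p = 0.183), with -0.40 under the block, so that both slides gave a similar size. Pros1 (protein S), the cofactor of protein C, read 3.26, 3.39 and 3.01 in chow-fed mice and 2.77, 2.67 and 2.94 under high-Chol feeding, a difference of -0.43 that was -0.45 with the block. A second Pros1 probe differed by -0.20, with overlap between the groups. Plg (plasminogen) read 7.08, 7.34 and 7.19 in chow-fed mice, 7.04 on the slide 1 high-Chol array, and 6.56 and 6.54 on slide 2. Its difference of -0.49 (SE 0.19, adjusted p = 0.210) was -0.16 with the block. Their median of -0.43 lay beside -0.41 for all 17 genes.

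The medians by slide are given next for each pathway, and the contrast between the pathways was not tested. On the high-Chol array of slide 1 the median difference from the mean of normal chow was -0.38 for complement and -0.23 for coagulation. On slide 2 the corresponding medians were -0.47 and -0.44. The slide 1 array was below all 3 normal chow arrays for 17 complement and 14 coagulation genes, where it was so for 32.9% of all genes, and the exceptions were Mbl2, F7, F8 and Fga. No member had an unadjusted p under 0.05 with slide as a block, where 3.46% of all genes were lower at that threshold, and 32 of 35 kept a difference below 0. Without the slide 1 high-Chol array, limma called 10 members lower (C4b, Hc, C8b and C9, and F11, Klkb1, F5, F7, Fga and Plg), where 4.55% of all genes were called lower, but diet and slide cannot be told apart in those arrays.

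**Figure D2:**
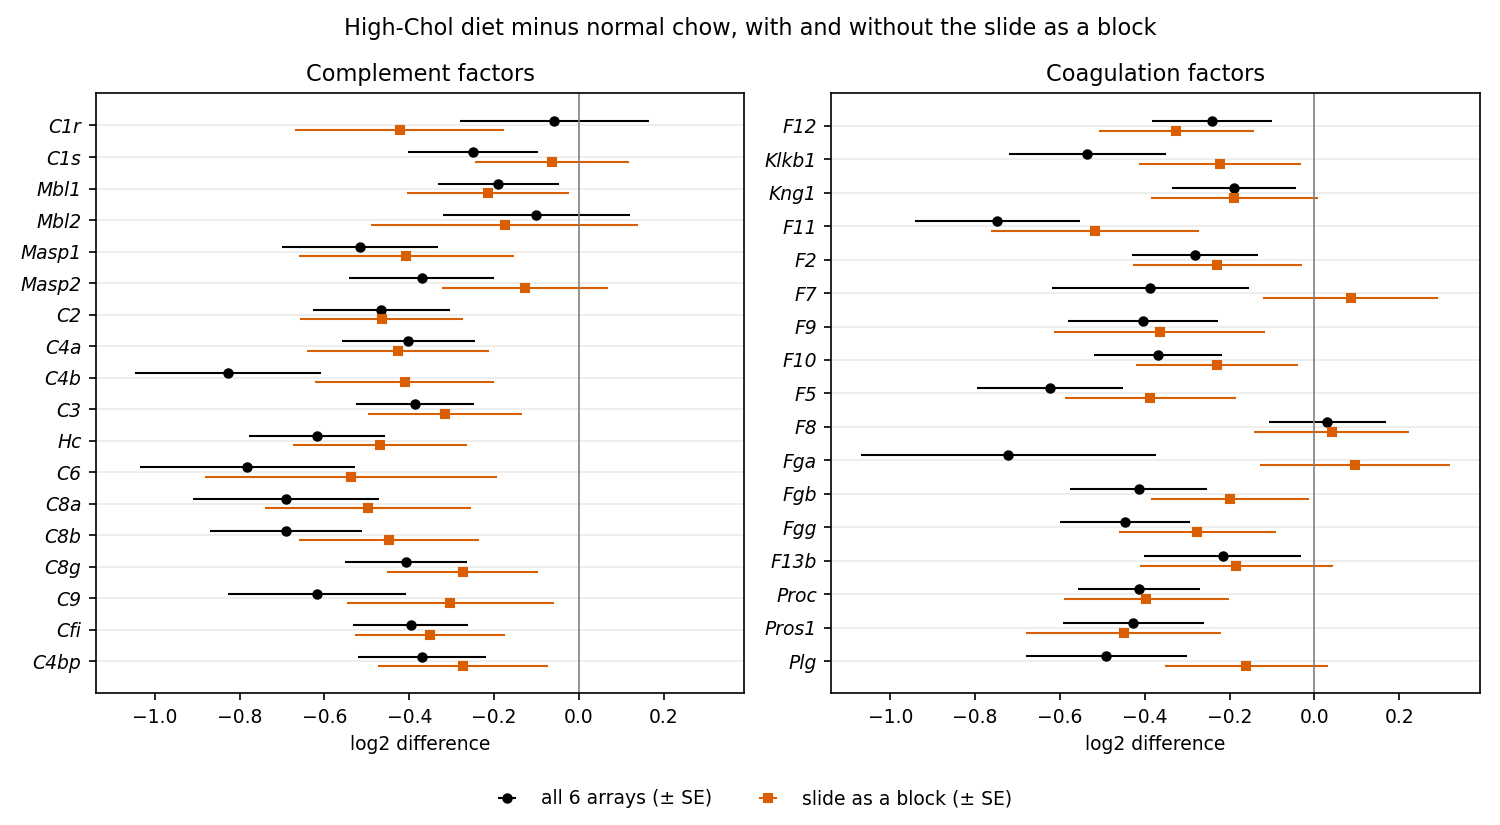
Log2 difference, high-Chol diet minus normal chow (x axis), of each member (y axis) with its standard error, from the fit of all 6 arrays (black) and with slide as a block (orange). With the block 32 of 35 members remain below 0, and Fga and F7 move to 0.10 and 0.09.

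Most members have bright probes, and the difference between diets moved with brightness over the whole array. The mean log2 signal was at least 4 in 25 members and in 1649 of all genes tested. Over these 1649 genes the median difference was -0.19 and 80.0% were lower, while the 25 members among them had a median of -0.40. At an unadjusted p under 0.05 in limma, 271 of the 1649 genes and 15 of the 25 members were lower. Where all 6 arrays were read, every high-Chol value was below every normal chow value for 30.4% of these genes and 81.8% of these members. The slide 1 high-Chol array was below all normal chow arrays for 43.8% and 92.0%. For the 10 dimmer members the median was -0.47, against 0.01 for the dimmer genes of the array. When all genes were put in 7 bins of mean signal, 31 of the 35 members lay below the median of their own bin, and 30 did after quantile normalization. After quantile normalization the bright genes had a median of 0.04 and the bright members -0.15. The 812 dimmest genes, with 0 members among them, then had a median of 0.41, against 0.71 before and 0.23 with slide as a block. Genes this dim could pass the filter through the arrays of 1 diet alone. With the normexp background the bright genes had a median of 0.11, the bright members -0.12 and the 812 dimmest genes -0.62. Under both, 28 of the 35 members were below 0, where 62.6% of all genes were with normexp and 46.5% with quantile normalization, and those above 0 included C1r, C1s, Mbl1, Mbl2 and Kng1. The part of brightness in the members' differences was not tested further.

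**Figure D3:**
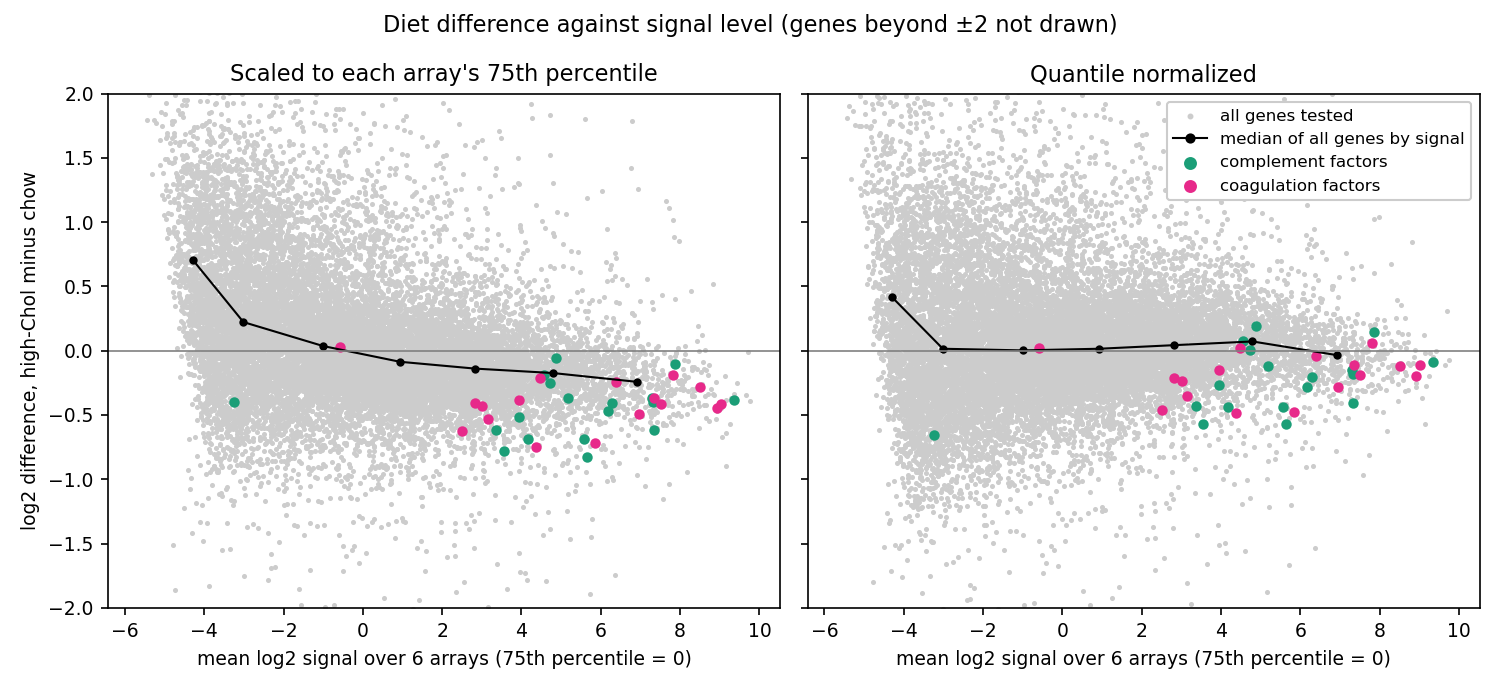
Log2 difference between diets (y axis) against mean log2 signal (x axis) for all genes tested (grey), complement factors (green) and coagulation factors (pink), with the median of all genes in bins of signal (black line). Left, arrays scaled to their 75th percentile, where the line falls from 0.71 at the dimmest to -0.24 at the brightest genes; right, quantile normalized. Of the 35 members, 31 lie below the median of their bin in the left panel and 30 in the right.

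Several members had further probes. Of the 49 probes, 47 passed the filter, and 46 of these had a difference between diets below 0, with F8 as the exception. In all 10 genes with several such probes, the difference was below 0 for every probe. The second probes of C1s, F9 and Plg differed by -0.49, -0.28 and -0.48, in each case with overlap between the groups. These probes were read on the same arrays and are no further replicates of the diet, and the second C1r probe is the one annotated to C1rb.

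Other complement genes, which were not members, included genes of macrophages and of the membrane. Of 33 listed, 28 were tested, 15 were lower and 13 higher (median -0.09), 0 were called lower and 3 higher. C1qc, a chain of the recognition molecule C1q that macrophages make, rose from 3.52 ± 0.09 (SD, n = 3) to 4.46 ± 0.17 (SD, n = 3). The difference was 0.93 (adjusted p = 0.0290 from limma). The complement receptor subunits of leukocytes, Itgb2 and Itgax, rose by 1.23 (adjusted p = 0.0132) and 3.27 (adjusted p = 0.0060), where Itgax was well above background on only 2 normal chow arrays. The difference for Itgax was 1.77 with the mean of its probes and 0.48 with the normexp background. C1qa and C1qb, the other two chains, were named after their values were seen and differed by 0.59 and 0.61 without overlap (adjusted p = 0.105 and 0.117). C1r and C1s of the same C1 complex differed by -0.06 and -0.25. Among the genes that were not called, C3ar1, the receptor of C3a, differed by 1.48 (adjusted p = 0.117), and by 0.48 with slide as a block, and was well above background on only 2 normal chow arrays. Cd55b (Daf2 on the array), a decay-accelerating factor, was not well above background on normal chow, and its slide 1 high-Chol value of -4.88 lay inside the normal chow range of -5.46 to -4.84 (adjusted p = 0.162). Cfd (factor D) differed by 1.15, with overlap between the groups, and by -1.07 with slide as a block. Among soluble proteins, also named after their values were seen, some had lower and some higher means. Cfb, Serping1 (the C1 inhibitor), Clu and Vtn differed by -0.25, -0.41, -0.32 and -0.30. Cfp (properdin) and Fcna (ficolin A) differed by 0.64 (adjusted p = 0.0721) and 0.80 (adjusted p = 0.0550), without overlap.

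Of 38 other genes of coagulation and fibrinolysis, 34 were tested, 20 were lower and 14 higher (median -0.28), 0 were called lower and 6 higher. Plaur, the urokinase receptor, rose by 2.57 (adjusted p = 0.0091), and Plau, urokinase itself, was at least 1.97-fold higher (adjusted p = 0.0063), since it was not well above background on any normal chow array. F13a1, the catalytic subunit of factor XIII that macrophages make, was likewise not well above background on normal chow and was at least 3.40-fold higher (adjusted p = 0.0258). F13b, its carrier subunit and a member, differed by -0.22. Fgl2, a prothrombinase of macrophages and endothelium, rose by 1.83 (adjusted p = 0.0103), Procr, the receptor of protein C, by 1.57 (adjusted p = 0.0202) and Anxa2, a surface receptor of plasminogen, by 1.11 (adjusted p = 0.0179). All 9 genes called in the complement and coagulation lists lost their call with the normexp background, under which limma called 0 of all genes. Plau and F13a1 then differed by -0.42 and -0.24, so their bounds hold only without that correction, and the other 7 stayed above 0. With slide as a block all 9 were above 0 and 0 were called. The methods' t-test called 0 of the 9, limma without the filter on dim probes 1 (Itgax), and median scaling 7. Itgax, Plau and F13a1 passed the filter only through the high-Chol arrays, so their tests are not independent of where they were high. With the filter for all 6 arrays these genes were not tested, and the other 6 kept their calls. Of the 9 calls, 5, 1 (Itgax) and 5 held without normal chow position 1, 2 or 3, 9 without the slide 1 high-Chol array, and 3 and 4 without position 2 or 3 of slide 2. Among those not called, Serpine2, an inhibitor of thrombin, differed by -0.97 and F2rl2, a thrombin receptor, by 0.83. The groups overlapped for F2rl2, which was well above background on only 2 normal chow arrays and differed by -0.26 with slide as a block. F2rl3, another receptor of thrombin, was not well above background on normal chow, and its groups overlapped (adjusted p = 0.222). Serpinc1 (antithrombin), named after its value was seen, differed by -0.49 (adjusted p = 0.151).

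Lists of other liver genes give the range in which the members lie. Of 24 other secreted proteins of hepatocytes 22 were tested, 19 were lower, the median was -0.31 and 0 were called. Alb and Ahsg both differed by -0.34, Apob by -0.04 and Ttr by 0.48. Their median was 0.01 after the normexp correction and -0.06 with quantile normalization, where the complement members had -0.16 and -0.24 and the coagulation members -0.14 and -0.19. In 17 acute phase genes the median was -0.08, and 9 were lower. The sign of this median depended on the processing: quantile normalized arrays gave 0.17 and the normexp correction 0.21, each with 5 of the 17 lower. Lcn2 rose by 4.03 (adjusted p = 0.0053), a call that was lost with slide as a block (3.67, adjusted p = 0.0830), with the normexp background (2.61) and with the methods' t-test. Saa1, Saa2 and Saa3 differed by 2.43, 2.41 and 2.93 without a call, whereas Fga, Fgb and Fgg, which also belong to the acute phase, differed by -0.72, -0.41 and -0.45. Of 20 transcription factors and receptors of hepatocytes 16 were lower, with a median of -0.28 and 0 called. Onecut1, Nr0b2, Cebpa and Foxa3 had the largest absolute differences over all arrays, -1.14, 1.13, -1.02 and -0.98, and Hnf4a differed by -0.26. With slide as a block the difference of Ppara, -1.14, was larger than that of Cebpa, -0.72.

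**Figure D4:**
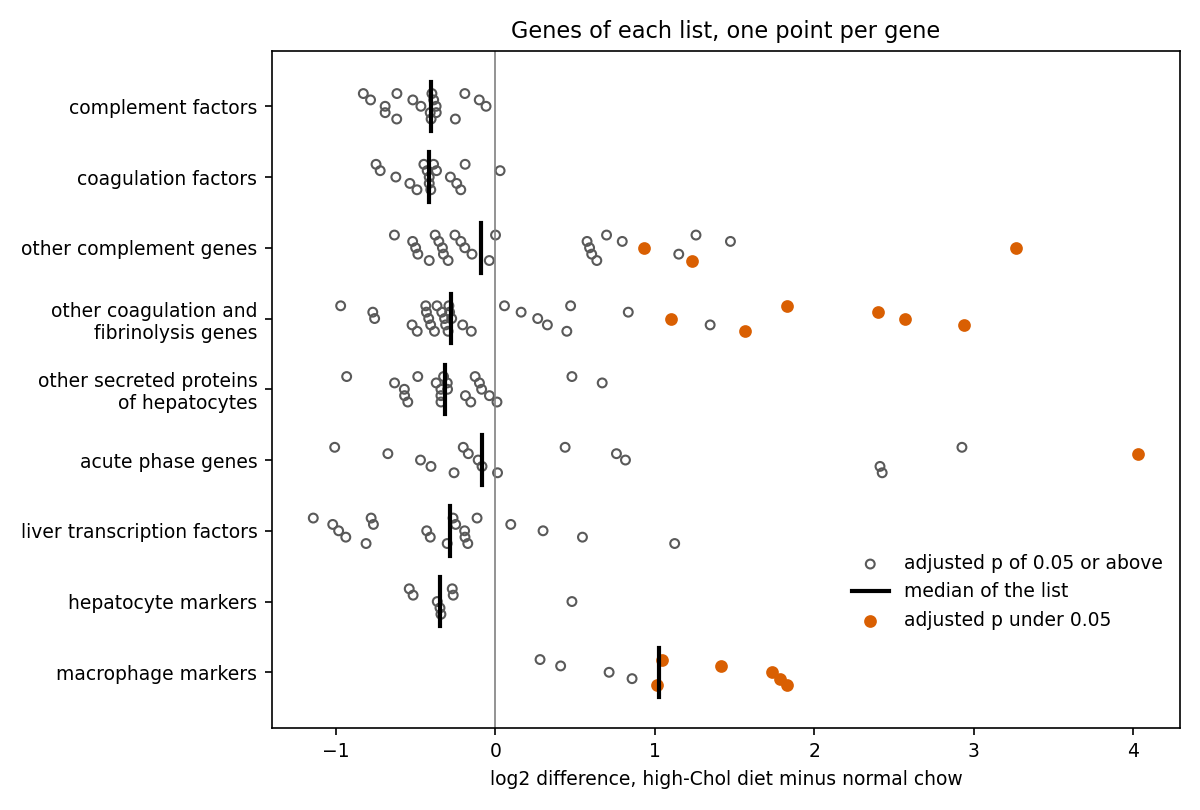
Log2 difference, high-Chol diet minus normal chow (x axis), of every tested gene in 9 of the lists (y axis), with filled points for an adjusted p under 0.05 and a black bar for the median of the list. The members cluster between -0.83 and 0.03 with no filled point, while called genes at higher values lie, among the lists plotted, in the other complement, other coagulation, acute phase and macrophage lists.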

How the data were processed

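Liver RNA was hybridized to Agilent mouse arrays with 1 dye, 3 arrays per diet. The authors deposited scanner output in which the intensity of each spot was background-subtracted by the feature extraction software and not normalized between arrays. The version is 9.1 per the labels, and the file headers of slide 1 give 9.5. They also deposited 1 log2 value per probe and diet, whose scale was close to that of the scanner values (r = 0.99 for the difference between diets, slope 1.00, offset -0.24) and whose centring is not given in the sources used here. The direction matched for 34 of the 35 members, with F8 as the exception (0.03 here and -0.21 in the deposited values). This table served as an alternative only.

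Each array has 45018 spots, 1639 of them controls, which were left out. Between 50.5% and 67.3% of non-control spots were well above background, and 75 to 196 per array were outliers and left out. Log2 processed signals were centred on the 75th percentile of each array. The filter kept probes that exceeded background clearly on every array of 1 diet or both, and the brightest such probe stood for its gene. The test was limma (version 3.58.1, R 4.3.3; lmFit and eBayes without covariate), with Benjamini-Hochberg adjustment over 16722 genes and a threshold of 0.05, and the code was tested on simulated data. Nothing states that the arrays come from separate animals, so p-values measure the spread between arrays. Array number limits the precision.

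The members and lists were chosen with earlier results of these data known. Every member was accounted for, values on each array were printed for members with an unadjusted p under 0.05 in either fit and for the 3 of each pathway with the largest difference; C1r, F7 and F8 were added after their values were seen, as were the motifs and the classes of brightness. Of the other pathway genes, those called and up to 6 others with the largest difference were named. Of these lists, 2 genes are not reported here and were left out of the counts and medians of their lists. All 35 member probes matched a RefSeq accession; C1r and C1s are now C1ra and C1s1. The bound for a dim gene takes the lowest signal well above background on each array in place of a lower value. Alternatives were a normexp background (offset 50), median scaling, quantile normalization, no filter and a filter for all 6 arrays, each probe alone, the mean of probes (over arrays where all probes of a gene were read), a block for the slide, leaving out single arrays, the methods' t-test and the deposited log2 values.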

Additional observations from a re-analysis of the deposited data

How the results depend on the processing

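Under each alternative run, 14 to 18 of the 18 complement genes and 14 to 17 of the 17 coagulation genes were lower on the high-Chol diet. The complement median of -0.40 became -0.16 with the normexp background, -0.24 with quantile normalization, -0.64 after median scaling and -0.65 in the deposited log2 values, and the coagulation median of -0.41 became -0.14 with the normexp background, -0.19 with quantile normalization, -0.23 with slide as a block, -0.65 after median scaling and -0.66 in the deposited values. Median scaling moved the median of all genes to -0.26 and the normexp background to -0.11. Leaving out 1 array gave medians of -0.47 to -0.37 for complement and -0.44 to -0.35 for coagulation. Calls were 0 for members except when the slide 1 high-Chol array was left out, so that the range over left-out arrays was 0 to 4 complement and 0 to 6 coagulation genes lower.

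Over all genes, limma called 450 higher and 38 lower. The counts were 0 and 0 with the normexp background, 331 and 73 after median scaling, 379 and 23 with quantile normalization, 26 and 0 without the filter, 565 and 61 probes by themselves, 11 and 0 with slide as a block and 4 and 1 with the methods' t-test, and 42 to 2313 higher and 0 to 761 lower with an array left out, with the extremes when normal chow position 2 or the slide 1 high-Chol array was left out.

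Single members changed sign as follows. With the normexp background C1r was 0.23, C1s 0.053, Mbl1 0.082, Mbl2 0.23, F12 0.031, Kng1 0.14, F2 0.11 and F8 -0.13. With quantile normalization C1r was 0.20, C1s 0.0088, Mbl1 0.072, Mbl2 0.15, Kng1 0.062 and F13b 0.019. With slide as a block F7 was 0.085 and Fga 0.10. F8 was -0.21 with median scaling and with the deposited values, and -0.021 to 0.067 with an array left out. C1r ranged from -0.23 to 0.13 and Mbl2 from -0.32 to 0.048 with an array left out. The cause of these changes was not tested. No paired analysis was possible because the arrays carry no replicate numbers that tie a normal chow array to a high-Chol array.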
